A study of Homo sapiens with 8 samples.

Results

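The genes described here are the olfactory receptors of human chromosome 11, taken as every gene of that chromosome whose symbol has the form OR, a family number, a subfamily letter or letters and a member number, with the promoter window of most reads standing for each gene. There were 125 such genes of 25995 genes with a promoter window, and another 164 olfactory receptors lay on other chromosomes. Their 132 windows all had the usual width of 2100 bases, 2000 bases upstream of a transcript's start and 100 bases downstream, and 4 genes had more than 1 window. None of the symbols ended in P, the mark of a pseudogene.

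The study profiled H3K9me3, trimethylated lysine 9 of histone H3, by chromatin immunoprecipitation and sequencing in SiHa cells, a line from a squamous carcinoma of the cervix. Cells were placed in transwell chambers, in which they can crawl through a porous membrane, and after 10 h the migrated and the non-migrated cells were collected separately. The 8 libraries fell into 4 groups of 2: H3K9me3 in migrated cells, input in migrated cells, H3K9me3 in non-migrated cells and input in non-migrated cells, with 1 library of each in replicate set 1 and 1 in replicate set 2. No gene was altered and no drug was given; the fractions differ by whether the cells had crossed the membrane. All of it is 1 cell line, the series presents the sets as paired, and set 1 was made with a TruSeq kit and gel extraction while set 2 was made with an NEB kit and beads, so kit and set cannot be told apart. Per the labels, set 1 had a high duplication rate and the submitters' own analysis rested on set 2. The title of the migrated H3K9me3 library of set 1 calls it replicate 1 and its description replicate 2; the title was followed.

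Olfactory receptors are G protein-coupled receptors that detect odorants in the sensory neurons of the nose, and they form the largest gene family of mammals. Each neuron expresses a single receptor allele and keeps the others silent, and in mouse olfactory neurons the silent receptor genes carry H3K9me3 and H4K20me3. Class I receptors resemble those of fish and class II receptors are typical of land animals. In other tissues most receptor genes are not transcribed. H3K9me3, laid down by SUV39H1, SUV39H2 and SETDB1, marks constitutive heterochromatin and silenced gene families.

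Promoter sequences were available from RefSeq (GRCh38.p14) for 106 of the 125 genes, as 300 bases from 250 before to 50 after the gene's start. They were poor in G and C, with a median GC content of 37.0% (range 24.3 to 57.0%) against 58.3% over 27305 RefSeq promoters, and 27.4% of them held no CpG, against 4.2% of all promoters. The promoters of the 3 receptors with the highest and the 2 with the lowest H3K9me3 among those matched on the same strand are shown. RefSeq starts can differ from the starts behind the windows in which reads were counted (hg19). Judged by the shift between builds at OR5D14 and OR4D6, the printed promoters of OR9G4 and OR8J3 lie upstream of their counted windows. Motifs tied to olfactory receptor promoters or to transcription starts were searched on both strands. The homeodomain core recognised by factors such as LHX2 was searched as TAATTA. For EBF factors the core of their site was searched as CCCNNGGG, and the TATA box as TATAAA. Capitals mark the homeodomain core and the TATA box on either strand. The EBF core was in none of the 5 promoters, and no marked matches overlap.
OR5D14 (chr11:55795306-55795605, + strand): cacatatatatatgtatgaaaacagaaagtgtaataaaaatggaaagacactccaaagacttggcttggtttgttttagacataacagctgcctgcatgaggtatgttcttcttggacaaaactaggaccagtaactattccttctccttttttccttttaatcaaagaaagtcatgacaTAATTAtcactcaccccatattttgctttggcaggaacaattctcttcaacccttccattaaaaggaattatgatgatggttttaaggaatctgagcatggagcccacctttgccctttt
OR9G4 (chr11:56748648-56748947, − strand): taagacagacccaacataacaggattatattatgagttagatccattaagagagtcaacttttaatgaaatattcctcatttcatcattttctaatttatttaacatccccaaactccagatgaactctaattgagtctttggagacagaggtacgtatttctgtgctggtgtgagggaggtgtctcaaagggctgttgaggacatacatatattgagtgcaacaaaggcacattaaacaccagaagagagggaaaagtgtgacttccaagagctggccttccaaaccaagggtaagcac
OR8J3 (chr11:56140152-56140451, − strand): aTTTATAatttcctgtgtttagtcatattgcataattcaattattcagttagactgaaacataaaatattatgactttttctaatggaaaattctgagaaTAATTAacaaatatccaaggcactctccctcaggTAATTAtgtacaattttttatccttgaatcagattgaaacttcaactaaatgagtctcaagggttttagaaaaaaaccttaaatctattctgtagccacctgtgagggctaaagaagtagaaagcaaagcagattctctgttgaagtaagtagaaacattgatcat
OR51V1 (chr11:5200633-5200932, − strand): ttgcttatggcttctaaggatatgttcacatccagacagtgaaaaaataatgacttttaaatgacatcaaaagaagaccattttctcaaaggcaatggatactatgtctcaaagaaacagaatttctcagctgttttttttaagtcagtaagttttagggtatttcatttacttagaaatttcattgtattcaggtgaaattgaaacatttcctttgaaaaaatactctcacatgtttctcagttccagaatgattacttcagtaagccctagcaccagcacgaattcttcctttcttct
OR4D6 (chr11:59456711-59457010, + strand): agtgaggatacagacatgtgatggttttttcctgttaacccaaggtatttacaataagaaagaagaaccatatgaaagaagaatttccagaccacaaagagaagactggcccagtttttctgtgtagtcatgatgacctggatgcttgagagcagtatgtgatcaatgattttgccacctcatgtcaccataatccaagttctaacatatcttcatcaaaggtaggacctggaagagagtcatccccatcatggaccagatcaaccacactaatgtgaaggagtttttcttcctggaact

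Each printed sequence reads 5′ to 3′ on the gene's strand. OR5D14 had 1 TAATTA, OR8J3 had 2 and a TATA box, and the other 3 promoters had none of the motifs. Over the 106 promoters TAATTA was present in 25.5%, against 5.0% of all RefSeq promoters, the TATA box in 31.1% (33 promoters, against 3264 of all 27305), and the EBF core in 7.5% against 18.6%. The homeodomain core and the TATA box are made of A and T alone, and the receptor promoters are richer in those bases. Receptors later called enriched for H3K9me3 had TAATTA in 9 of 27 matched promoters and those not called in 18 of 75. Pearson's r between H3K9me3 over input and GC content was -0.17 across the 104 receptors with both a promoter and a test. With the number of CpG it was -0.06. Receptors are not independent and share libraries, and a promoter can lie outside the window whose reads were counted, so these are descriptions. No promoter of a member aligned with another RefSeq promoter over 200 or more bases at 90% identity or more.

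The libraries held 88028 (migrated, set 1), 984835 (migrated, set 2), 164766 (non-migrated, set 1) and 1137376 (non-migrated, set 2) H3K9me3 reads in promoter windows, and the inputs 684949, 1679874, 388191 and 1729061 reads in the same order. At the receptors the migrated set 1 H3K9me3 library had a median of 3 reads (range 0 to 11) and no read at 23 of the 125 genes, and that of the non-migrated cells had a median of 6 reads (0 to 16) and no read at 1 gene. In set 2 the medians were 26 reads (1 to 81) for H3K9me3 and 27 reads (6 to 60) for input in migrated cells, and 25 reads (4 to 72) for H3K9me3 and 26 reads (2 to 54) for input in non-migrated cells. A single receptor of set 1 thus rests on a handful of reads. Of the 125 genes 123 passed the minimum on reads; OR4C11 and OR4S2 did not and have no fold or test.

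H3K9me3 over input was higher at these receptors than at most promoters, and by a modest amount. The log2 ratio of H3K9me3 to input, averaged over both fractions, had a median of 0.45 over the 123 receptors (quartiles 0.01 and 0.83), against -0.35 over all 36440 windows tested and -0.17 over 1 window per gene. It was above 0 at 93 of the 123. Zero on this scale is the level at which H3K9me3 and input are equal after library scaling, not the absence of the mark. With limma and Benjamini-Hochberg adjustment over all windows, 30 of 123 receptors (24.4%) were enriched and 2 were lower (OR51V1 and OR4D6), where the background over all windows was 15.8% enriched and 35.2% lower, and over 1 window per gene 18.6% and 30.9%. The low count on the lower side is thus the larger departure from the background: 1.63% of receptors were called lower. At 47 receptors (38.2%) the ratio was above 0 in all 4 pairs of libraries, against 20.1% of all windows.

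The share of all windows called moved with the scaling and with single libraries. Without the migrated input of set 1, receptors were called enriched no more often than all windows. The receptors' median was then 0.356 and that of all windows -0.328. The number of receptors called enriched also depended on how the libraries were scaled and on single libraries. It was 66 once migrated H3K9me3 of set 1 was left out and 49 once non-migrated H3K9me3 of set 2 was, but 9 without the migrated input of set 1 and 17 without the non-migrated input of set 1. The lower calls numbered 8 without the non-migrated H3K9me3 library of set 1, 9 once migrated H3K9me3 of set 2 was left out, and 1 without the migrated or the non-migrated input of either set. Within set 2 alone 85 receptors were enriched and 0 lower, where 32.4% of all windows were enriched and 31.5% lower. Under the scaling of the deposited values 0 receptors were enriched and 22 lower, where 54.0% of all windows were lower; the receptors' median was then -0.525 and that of all windows -1.296. What moved little was the distance from the other promoters: the receptors' median exceeded the median of all windows by 0.80 on the log2 scale, and by 0.64 to 0.98 in all other settings tried.

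Summed over all 125 receptors, the reads gave the same order in each pair of libraries. The log2 of summed H3K9me3 over summed input was 0.21 ± 0.085 (counting error) in migrated cells of set 1 and 0.74 ± 0.035 in migrated cells of set 2, and 0.37 ± 0.066 and 0.55 ± 0.035 in non-migrated cells of sets 1 and 2. The sum over all windows was -0.23 and -0.01 in migrated cells of sets 1 and 2, and -0.10 and -0.13 in non-migrated cells. The receptors lay above all windows in 4 of 4 pairs, by more in set 2. Input coverage of the receptors moved with the set: relative to the mean window it was 0.863 and 0.635 in migrated cells of sets 1 and 2, and 1.00 and 0.581 in non-migrated cells. Its part in the difference between sets was not tested.

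**Figure D1:**
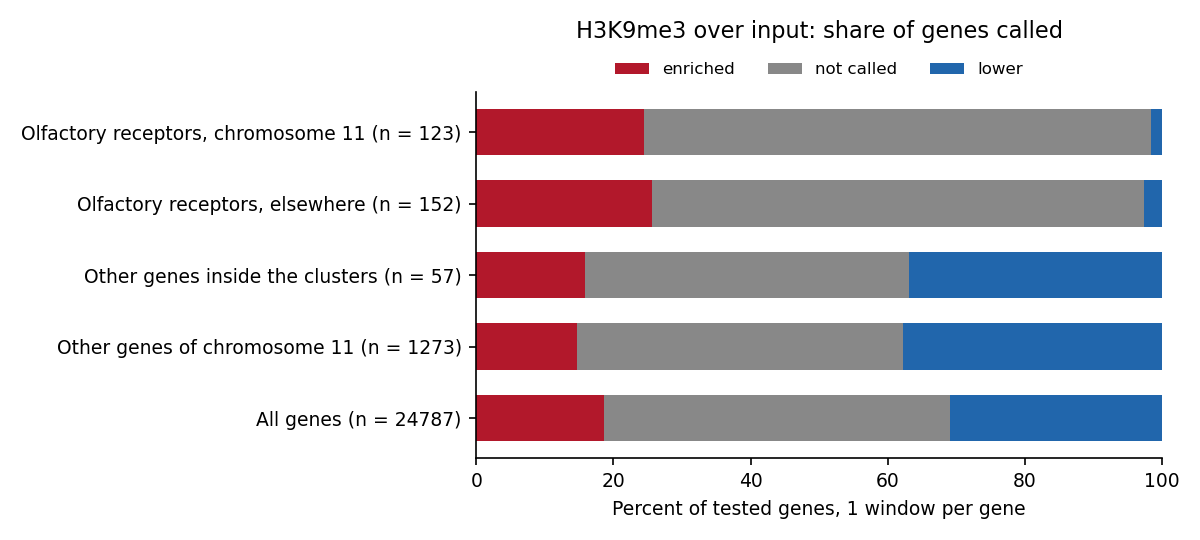
Percent of tested genes called enriched, not called or called lower in H3K9me3 over input (limma, adjusted p under 0.05), with 1 window per gene, for the receptors of chromosome 11, receptors elsewhere, other genes inside the receptor clusters, other genes of chromosome 11 and all genes. The lower share is 1.63% for the receptors of chromosome 11 and 30.9% for all genes.

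Receptors elsewhere in the genome had close values: 39 of 152 tested (25.7%) were enriched and 4 (2.63%) were lower, with a median log2 ratio of 0.50. Pooled over the clusters, genes that are no receptors but lie between a cluster's first and last receptor had fewer high and more low calls. Of 57 such neighbours, 9 were enriched (15.8%) and 21 were lower (36.8%), with a median of -0.21. All the lower ones lay in clusters 1 and 4 (clusters are described below). Cluster 1 had 32 neighbours (6 enriched and 12 lower, median 0.02, receptors 0.22). Cluster 4 had 19 (0 enriched and 9 lower, median -0.75, receptors 0.09). The enriched share was 18.75% at the neighbours of cluster 1, against 13.79% at its receptors. In cluster 4 it was 0%, against 10.53% at the receptors, and only there was it lower at the neighbours. The 3 neighbours in cluster 3 had 2 enriched and a median of 1.49, against 0.70 at its receptors. The 3 in cluster 5 had 1 enriched and a median of 0.49, against 0.67 at its receptors. The remaining genes of chromosome 11 had 186 enriched and 481 lower of 1273 tested, with a median of -0.41. The differences between these lists were not tested. The bar plot of shares called shows both receptor lists apart from the 3 other lists.

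Among the neighbours the enriched windows inside cluster 1 belonged to TRIM68, TRIM5, MMP26, CCKBR, HPX and DCHS1. TRIM5, a restriction factor against retroviruses, had a log2 ratio of 1.57 ± 0.33 (SE) with an adjusted p of 0.000185 (limma), and MMP26, a matrix metalloproteinase, 1.47 ± 0.32 with an adjusted p of 0.000335. The other 3 enriched neighbours were RP11-674C21.9 and SPRYD5 in cluster 3 and RNU1-21P in cluster 5. The beta-globin genes lie within cluster 1: HBB, HBD, HBG1 and HBG2 had log2 ratios of 0.53, 0.35, 0.65 and 0.72, and none passed the test. The window standing for HBG2 (chr11:5537835-5539935) lies far from those of the other 3, of which that of HBG1 is at chr11:5271022-5273122. The HBG2 value thus belongs to a distant start and not to a promoter beside HBG1.

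Along chromosome 11 the receptors fell into 5 clusters of 5 or more genes, with a gap of over 1 Mb between window starts as the border, and 7 genes in smaller groups (hg19). Cluster 1 spanned chr11:4389516-6942305 near the tip of the short arm, from OR52B4 to OR2D3, with 29 genes. Cluster 2 spanned chr11:48236344-48510369 with 6 genes, from OR4B1 to OR4A47, and cluster 3 spanned chr11:55108627-56756447 with 45 genes, from OR4A16 to OR5AK2, on the other side of the centromere. Cluster 4 spanned chr11:57789353-59481029 with 19 genes, from OR9Q1 to OR10V1. Cluster 5 lay far along the long arm at chr11:123625153-124439993 with 19 genes, from OR6X1 to OR8A1.

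Clusters 3 and 5 had higher H3K9me3 over input than clusters 1, 2 and 4. The median log2 ratio was 0.70 in cluster 3 and 0.67 in cluster 5, against 0.22 in cluster 1, 0.06 in cluster 2 and 0.09 in cluster 4. Enriched receptors numbered 15 of 43 tested in cluster 3 and 6 of 19 in cluster 5, with none lower, against 4 of 29 in cluster 1 with 1 lower, 1 of 6 in cluster 2 with none lower, and 2 of 19 in cluster 4 with 1 lower. The members were chosen with results known, so the clusters are described with no test.

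Summed reads gave a value for each pair of libraries. Cluster 3 had 0.30 ± 0.15 and 1.06 ± 0.060 in migrated cells of sets 1 and 2 (log2, counting error), and 0.63 ± 0.11 and 0.82 ± 0.064 in non-migrated cells. Cluster 5 had 0.42 ± 0.20 and 0.67 ± 0.083 in migrated cells, and 0.47 ± 0.17 and 0.57 ± 0.083 in non-migrated cells. Cluster 3 lay above clusters 1, 2 and 4 in 4 of 4 pairs, by 0.07 to 0.53 above cluster 1, by 0.17 to 0.64 above cluster 2 and by 0.40 to 0.62 above cluster 4. Within counting error were its distance from cluster 1 in migrated cells of set 1, 0.07 ± 0.22, and from cluster 2 in both fractions of set 1, 0.17 ± 0.40 (migrated) and 0.18 ± 0.32 (non-migrated). Cluster 5 also lay above clusters 1, 2 and 4 in 4 of 4 pairs, by 0.14 to 0.36 above cluster 1, by 0.02 to 0.39 above cluster 2 and by 0.15 to 0.71 above cluster 4. In set 1 its distances from clusters 1 and 2 were 0.20 ± 0.26 and 0.30 ± 0.42 in migrated cells, and 0.36 ± 0.22 and 0.02 ± 0.34 in non-migrated cells. Clusters 3 and 5 were not separated: cluster 3 was higher in 3 of 4 pairs, with differences from -0.12 to 0.39. Cluster 1 exceeded cluster 4 in 3 of 4 pairs, with differences from -0.13 to 0.51. In set 2 alone the median of cluster 5 (0.726) was close to those of clusters 1 (0.708), 2 (0.730) and 4 (0.690), and below that of cluster 2, while that of cluster 3 was 1.14. Under the scaling of the deposited values every cluster median was below 0, with clusters 3 (-0.30) and 5 (-0.28) still the highest.

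**Figure D2:**
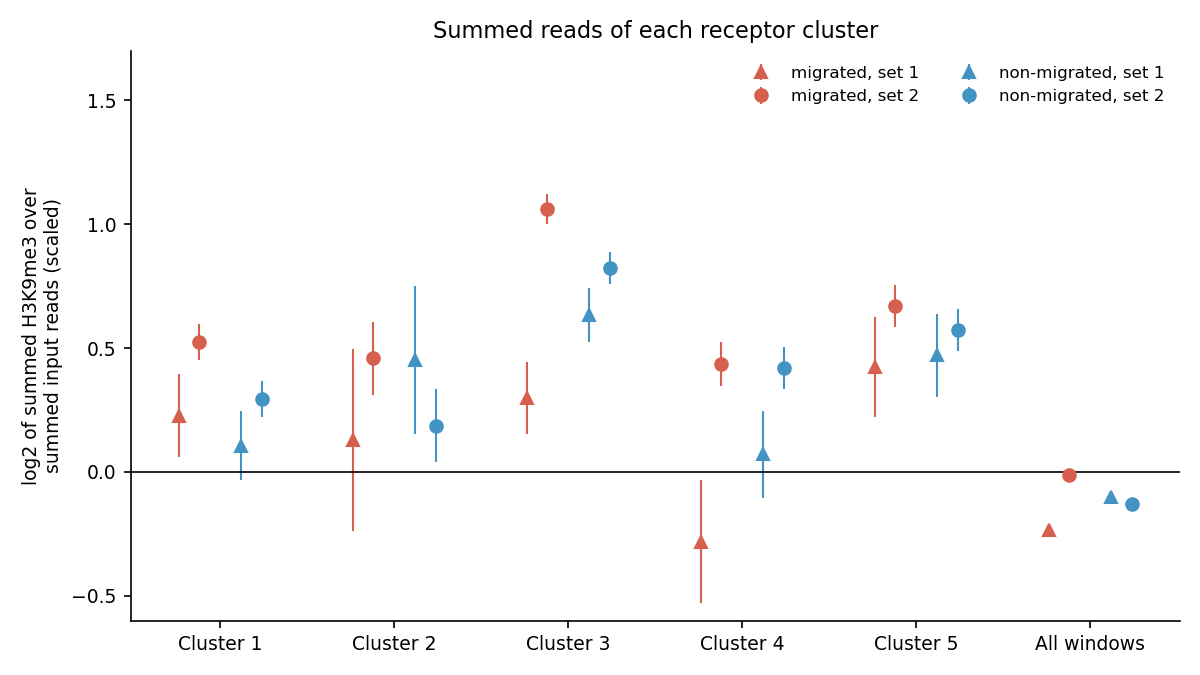
The log2 ratio of summed, scaled H3K9me3 reads to summed input reads for each receptor cluster and for all windows, with migrated cells left and non-migrated cells right at each position, triangles for set 1 and circles for set 2. Bars are counting errors; cluster 3 lies at 1.06 in migrated and 0.82 in non-migrated cells of set 2, above all windows at -0.01 and -0.13.

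Within cluster 1, class I and class II receptors lie in separate stretches. All 21 class I receptors of the list (families 51, 52 and 56 among them) lie there, and 2 were enriched and 1 lower, with a median of 0.31. Class II receptors, in all clusters and in the smaller groups outside them, had 28 enriched and 1 lower of 102 tested, with a median of 0.60. The 8 class II receptors of cluster 1 had a median of 0.05 with 2 enriched. Their summed reads gave a mean log2 ratio of 0.31 over the 4 pairs, against 0.25 for the class I genes of the cluster, so median and sum differed in order; no test was run. The 15 class I genes before the globin genes had a median of 0.38, and the 6 after them 0.13 with none enriched.

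Within cluster 3 the log2 ratios ran from -0.64 to 1.77, and whether they were uneven along its length was not tested. The 8 receptors from OR5M8 to OR9G4 (chr11:56258771-56513287) had 5 enriched and a median of 1.03, with the lowest at 0.69. The 6 OR5D and OR5L receptors (chr11:55538914-55606328) had 3 enriched and a median of 0.79, ranging from 0.03 to 1.77. Both stretches were picked after their values were seen. Summed reads of the 7 receptors with starts between 56250001 and 56500000 gave log2 ratios of 0.36 and 1.16 in migrated cells of sets 1 and 2, and 1.02 and 1.02 in non-migrated cells. Stretches of equal length elsewhere in the cluster were higher in migrated cells. The highest were 0.47 in set 1 (starts between 56000001 and 56250000) and 1.20 in set 2 (between 55500001 and 55750000). In non-migrated cells no other such stretch was higher.

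Cluster 4 fell into parts on either side of a long gap. The 11 receptors before it, at chr11:57789353-58277578, had a median of 0.35 with 2 enriched (OR1S1 and OR1S2), and the 8 after it, at chr11:59129885-59481029, had a median of -0.04 with none enriched and OR4D6 lower. The 4 OR4D receptors there had log2 ratios from -1.35 to -0.03, while OR4D5, of the same subfamily but in cluster 5, was enriched at 0.85 ± 0.33 (SE, adjusted p = 0.0326, limma). OR4D5 had 3 and 38 H3K9me3 reads against 22 and 26 input reads in migrated cells of sets 1 and 2, and 8 and 44 against 10 and 26 in non-migrated cells. The contrast within OR4D was noticed after the values were seen.

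Values of adjacent receptors correlated weakly. Pearson's r between adjacent receptors of a cluster was 0.14 over 111 adjacent pairs, 0.17 from set 2 alone and 0.06 from set 1 alone. Between the sets the mean of both fractions correlated at 0.40 over the 123 receptors, and between migrated and non-migrated cells at 0.24 in set 2 and 0.09 in set 1. These values share libraries and regions and are descriptions. The adjacent pairs were pooled over clusters of differing medians and pairs further apart were not compared, so no local resemblance is shown.

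**Figure D3:**
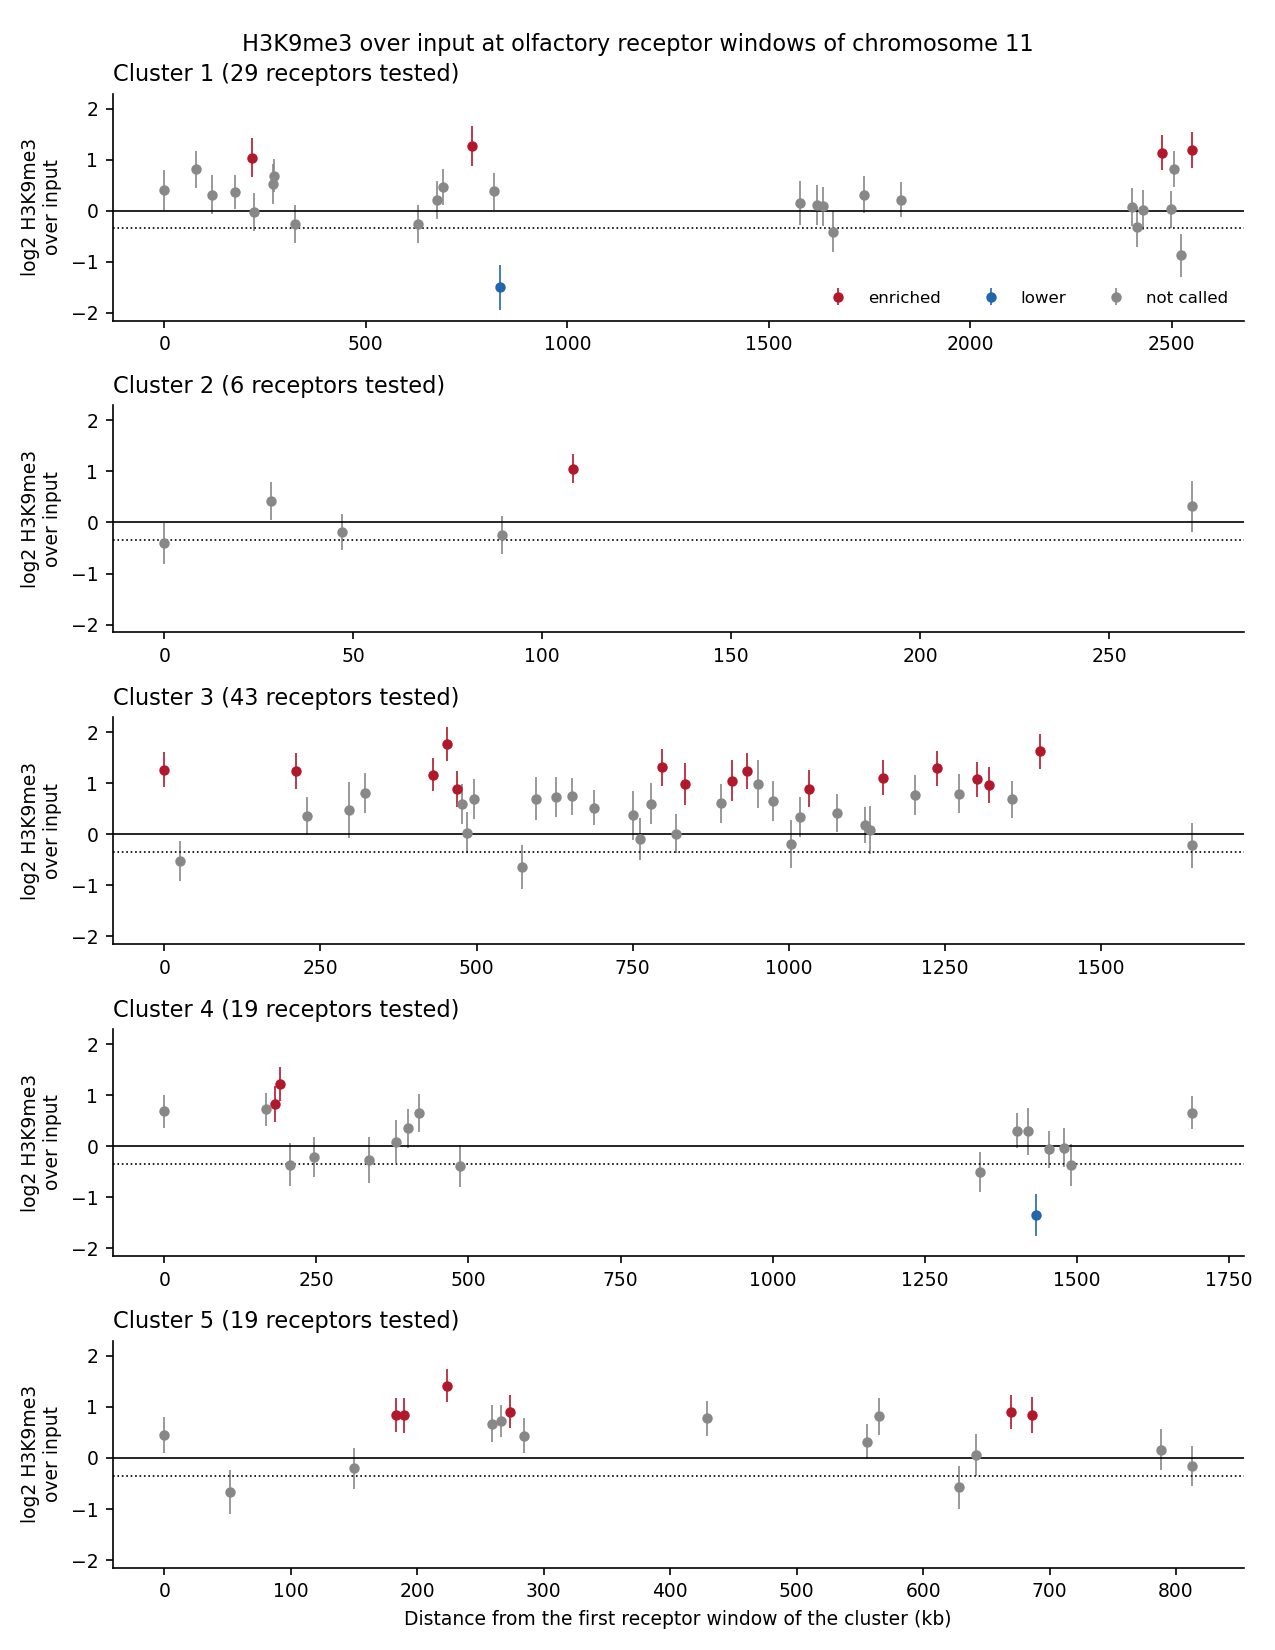
H3K9me3 over input (log2, mean of both fractions, bars are SE of the limma fit) of each tested receptor by distance in kb from the first receptor window of its cluster, 1 panel per cluster. Red points are enriched, blue lower and grey not called; the solid line is 0 and the dotted line the median of all windows at -0.35, below most receptors of cluster 3.

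OR5D14 (ENSG00000186113, chr11:55561032-55563132, + strand, hg19, the window upstream of the gene) had the highest ratio of all 123 receptors. It had 8 and 47 H3K9me3 reads against 12 and 25 input reads in migrated cells of sets 1 and 2, and 14 and 39 against 8 and 23 in non-migrated cells. The raw H3K9me3 reads exceeded the input reads in 3 of these 4 pairs, and after scaling the ratio was above 0 in all of them. The fitted ratio was 1.77 ± 0.33 on the log2 scale, 3.41-fold, with an adjusted p of 3.64e-05 (limma, 2 libraries per group). OR5D14 and OR9G4 were 2 of only 6 receptors that passed the test in migrated and non-migrated cells separately.

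OR9G4 (ENSG00000172457, chr11:56511187-56513287, − strand) had 5 and 71 H3K9me3 reads against 8 and 35 input reads in migrated cells, and 8 and 62 against 7 and 35 in non-migrated cells. In set 2 H3K9me3 reads exceeded input reads in both fractions, and the fitted ratio was 1.63 ± 0.34 (3.10-fold, adjusted p = 0.000191, limma). OR10S1 in cluster 5 (ENSG00000196248, chr11:123848388-123850488, − strand) had 5 and 81 H3K9me3 reads against 14 and 60 input reads in migrated cells, and 13 and 72 against 15 and 31 in non-migrated cells. Its ratio was 1.42 ± 0.32 (2.67-fold, adjusted p = 0.000469, limma), and without the migrated input of set 1 it was 0.87 with an adjusted p of 0.0836.

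The next in rank, among receptors with a mean of at least 20 input reads in set 2, were OR4C46, OR8J3, OR5M10, OR4A16 and OR1S1, with fitted log2 ratios of 1.33, 1.31, 1.29, 1.26 and 1.22 and adjusted p from 0.00187 to 0.00298 (limma). OR4C46, in a pair with OR4A5 next to the centromere, had 2 and 41 H3K9me3 reads against 14 and 20 input reads in migrated cells, and 10 and 51 against 7 and 23 in non-migrated cells. OR8J3 had 6 and 29 against 19 and 28 in migrated cells, and 5 and 45 against 4 and 15 in non-migrated cells, so its set 2 ratio was carried mainly by the non-migrated cells. OR5M10 went the other way, with 46 H3K9me3 against 21 input reads in migrated cells of set 2, and 32 against 31 in non-migrated cells. Without the migrated input of set 1, OR4A16 (1.15, adjusted p = 0.0786) and OR1S1 (1.20, adjusted p = 0.0598) did not pass.

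Above the same input limit the highest receptors of clusters 1 and 2 were OR2D3 and OR4C3; OR52A5 in cluster 1, below the limit, was enriched at 1.26 (adjusted p = 0.00793, limma). OR2D3 had 6 and 33 H3K9me3 reads against 9 and 25 input reads in migrated cells, and 9 and 26 against 12 and 25 in non-migrated cells, with a ratio of 1.18 ± 0.35 (adjusted p = 0.00554, limma). OR4C3 had 11 and 42 against 18 and 51 in migrated cells, and 13 and 48 against 15 and 42 in non-migrated cells, with a ratio of 1.06 ± 0.29 (adjusted p = 0.00244, limma). Both missed the threshold without the migrated input of set 1, at 0.87 (adjusted p = 0.157) and 0.83 (adjusted p = 0.0894). OR4C3 was enriched in both fractions separately.

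OR51V1 and OR4D6 were the receptors called lower. OR51V1, a class I receptor next to the beta-globin genes (ENSG00000176742, chr11:5221830-5223930, − strand), had 0 and 1 H3K9me3 reads against 14 and 24 input reads in migrated cells, and 4 and 11 against 13 and 20 in non-migrated cells. After scaling the ratio was below 0 in all 4 pairs of libraries, and the fitted ratio was -1.50 ± 0.45 (adjusted p = 0.00534, limma). It missed the threshold without the non-migrated input of set 1 (-1.30, adjusted p = 0.0595), without the migrated input of set 2 (-1.03, adjusted p = 0.121), and in set 2 alone (-0.85). OR4D6 in cluster 4 (ENSG00000166884, chr11:59222411-59224511, + strand) had 0 and 10 against 22 and 43 in migrated cells, and 3 and 17 against 9 and 43 in non-migrated cells, with a ratio of -1.35 ± 0.41 (adjusted p = 0.00586, limma). It missed the threshold at -0.65 without the migrated H3K9me3 library of set 1, at -1.22 without the migrated input of set 1, at -0.92 without the non-migrated H3K9me3 library of set 2 and at -0.95 without the non-migrated input of set 2, and at -0.77 in set 2 alone.

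The other 3 of the 5 lowest, OR2D2 (-0.87), OR6M1 (-0.67) and OR5W2 (-0.64), did not pass the test. All 5 had 0 H3K9me3 reads in migrated cells of set 1, the shallowest library. In set 2 alone the ratios of these 3 were 0.07, 0.03 and 0.42. OR4B1, the lowest of cluster 2 at -0.40, also had 0 reads there and was at 0.64 in set 2 alone.

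**Figure D4:**
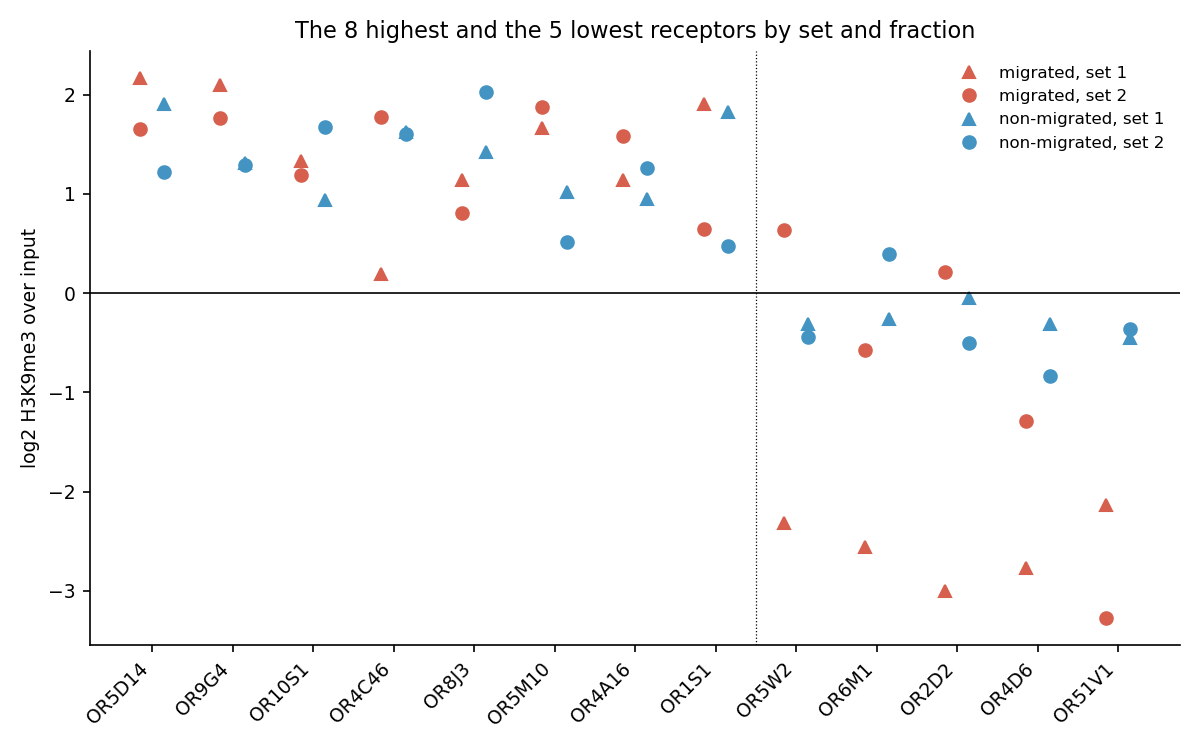
H3K9me3 over input (log2, scaled) in each of the 4 pairs of libraries for the 8 highest and the 5 lowest receptors, with migrated cells left and non-migrated cells right, triangles for set 1 and circles for set 2. OR5D14 lies above 0 in all 4 pairs, and the set 1 triangles of migrated cells at the 5 lowest receptors rest on 0 H3K9me3 reads.

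The 7 receptors outside the clusters had log2 ratios from -0.50 to 1.33. OR2AT4 lay on the long arm with no other receptor of the list within 1 Mb. Known as a receptor for a synthetic sandalwood odorant in keratinocytes, it was enriched at 1.03 ± 0.32 (adjusted p = 0.00755, limma). It had 4 and 53 H3K9me3 reads against 14 and 25 input reads in migrated cells, and 8 and 58 against 18 and 36 in non-migrated cells, and without the migrated input of set 1 it was at 0.87 with an adjusted p of 0.106. OR4A5, the partner of OR4C46, was at 0.90 with an adjusted p of 0.0653. OR10A6 and OR10A3 were at 0.64 and -0.50, and OR4C13 and OR4C12 at -0.07 and 0.50, none of them called. The 6 OR4A and OR4C receptors outside cluster 3 had a median of 0.70, and the 5 tested inside it 0.80.

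Among subfamilies with 4 or more receptors, OR5D had a median log2 ratio of 0.93, OR4C 0.80, OR5M 0.78, OR10G 0.70, OR10A 0.64, OR4A 0.61, OR8B 0.16, OR5B 0.09 and OR4D -0.06. Reads from close paralogs could be split or shared between them; the handling of reads with several matches is not stated in the labels.

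By fraction, 21 of 123 receptors were enriched and 2 lower in migrated cells, where the background over all windows was 12.9% and 28.3%. In non-migrated cells 10 of 123 were enriched and 0 lower, where it was 8.41% and 23.6%. The enriched share of receptors was thus above the background in migrated cells and not above it in non-migrated cells. Limma called 6 enriched in both fractions, and the matching share of all windows was not counted. These counts do not test a difference between the fractions. The input-corrected change, migrated minus non-migrated, is that test.

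No receptor passed the test for a change between the fractions: 0 of 123 were called at an adjusted p under 0.05 (limma), and the background over all 36440 windows was 0% in either direction. At an unadjusted p under 0.05 limma gave 7 receptors, 4 higher and 3 lower in migrated cells, against 1283 of all windows (3.52%). The smallest adjusted p of a receptor was 0.9995, and the median SE of the change was 0.65 on the log2 scale, so differences of the size seen at most receptors were not detectable at this depth. Calls at the receptors appeared only when 1 library was left out: 1 without the migrated H3K9me3 library of set 1, 8 without that of set 2 (1855 of all windows) and 6 without the non-migrated H3K9me3 library of set 2 (1384 of all windows). In these 3 settings 1 fraction has a single H3K9me3 library, assumed to vary like the others.

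The fitted change had a median of 0.18 over the receptors and -0.01 over all windows. It was higher in migrated cells in both sets at 38 receptors and lower in both at 23, where 23.9% and 26.6% of all windows were. The sets differed: summed over the receptors the change was -0.16 ± 0.11 (counting error) in set 1 and 0.20 ± 0.049 in set 2, against -0.13 and 0.12 over all windows. In each set the summed change of the receptors had the sign of that over all windows. By cluster the summed change in set 2 was 0.23 ± 0.10 in cluster 1, 0.27 ± 0.21 in cluster 2, 0.24 ± 0.088 in cluster 3, 0.02 ± 0.12 in cluster 4 and 0.10 ± 0.12 in cluster 5, and in set 1 it was 0.12, -0.32, -0.33, -0.35 and -0.05.

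Among receptors averaging at least 20 input reads in set 2 and with like direction in each set, the smallest unadjusted p on the higher side belonged to OR4X1, OR5M10, OR10G4 and OR2AT4. OR4X1 in cluster 2 had 4 and 30 H3K9me3 reads against 24 and 33 input reads in migrated cells, and 4 and 11 against 11 and 41 in non-migrated cells. Its change was 1.56 ± 0.65 (unadjusted p = 0.0212 and adjusted p = 0.9995, limma). OR5M10 was at 1.27 ± 0.59, OR10G4, a receptor for guaiacol, the odorant of smoke, at 1.21 ± 0.65, and OR2AT4 at 0.87 ± 0.51. OR5M10 was the only one of these 3 with an unadjusted p under 0.05 (0.0364). Below the input limit OR4A5 had an unadjusted p of 0.0290 (limma), with a change of 1.78.

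On the lower side, under the same input limit, the smallest belonged to OR51V1, OR4D10, OR8J3 and OR6M1. Below that limit OR4P4 (-3.60, unadjusted p = 0.00233, limma) and OR52A5 (-1.68, unadjusted p = 0.0261, limma) had the same sign in both sets. OR51V1, whose reads are given above, was at -2.43 ± 0.89 (unadjusted p = 0.00957 and adjusted p = 0.9995, limma), which rests on 1 H3K9me3 read in both migrated libraries together. OR4D10 was at -1.10 ± 0.60, OR8J3 at -1.12 ± 0.63 and OR6M1 at -1.17 ± 0.80, each with an unadjusted p above 0.05. OR4D10 had 1 and 21 H3K9me3 reads against 22 and 46 input reads in migrated cells, and 7 and 40 against 17 and 28 in non-migrated cells.

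**Figure D5:**
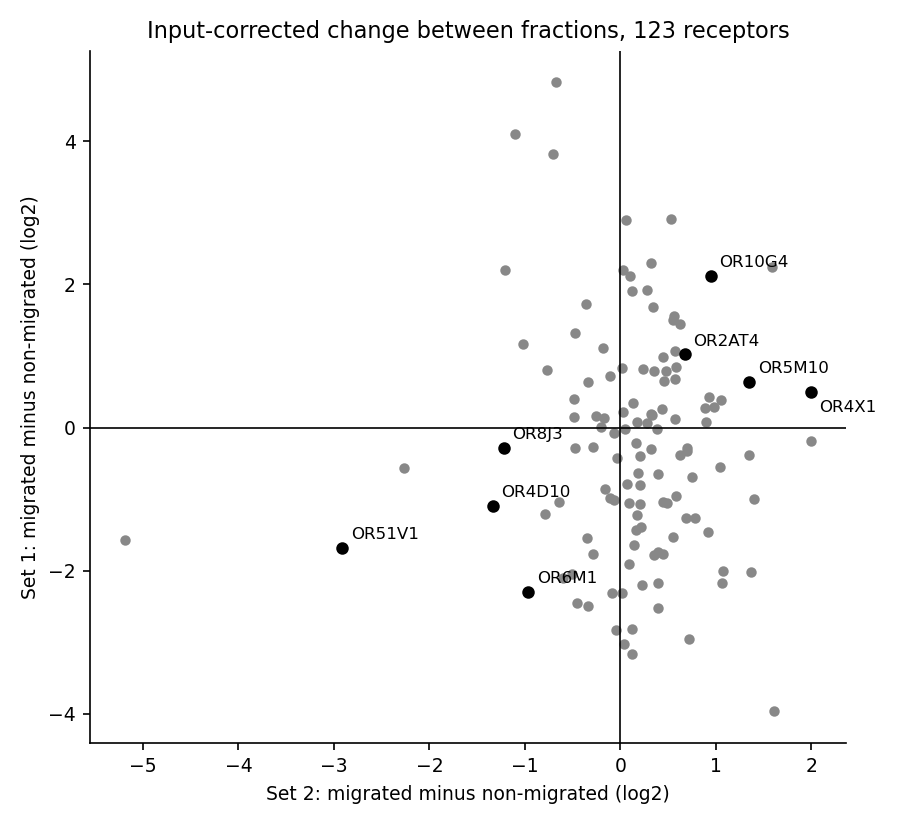
Input-corrected change in H3K9me3, migrated minus non-migrated cells (log2), in set 1 (vertical axis) against set 2 (horizontal axis) for the 123 tested receptors, with the 8 receptors of smallest p and like direction in black. Of them 38 receptors lie above 0 and 23 below 0 in both sets.

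Of 26 genes that act with these receptors in olfactory signalling and receptor choice 20 had a window, and 3 (15%) were enriched and 6 (30%) lower, with a median log2 ratio of -0.01. These shares were near the background of 18.6% enriched and 30.9% lower over 1 window per gene. CNGA4 and OMP were not analysed here. The enriched were EBF3, a transcription factor of the family that binds receptor promoters, at 6.15-fold (adjusted p = 8.03e-07, limma), PDE4A, a cAMP phosphodiesterase, at 1.41 and ANO2, the chloride channel of olfactory cilia, at 1.10 on the log2 scale. EBF3 had 9 and 99 H3K9me3 reads against 3 and 34 input reads in migrated cells, and 9 and 92 against 5 and 31 in non-migrated cells. The lower were GNB1 (-2.97), GNAL (-2.88), LDB1 (-2.45), ADCY3 (-1.75), LHX2 (-1.47) and KDM1A (-1.34). GNAL encodes the G protein subunit and ADCY3 the adenylyl cyclase of odorant signalling, and LHX2 with its cofactor LDB1 acts at receptor enhancers in mouse.

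The labelled cell type could not be checked by expression, which was not measured. Of 7 squamous and epithelial identity genes 6 had a window: KRT7 (-3.56) and KRT8 (-2.19) were lower, and EPCAM (-0.72), TP63 (-0.49), KRT5 (-0.47) and CDH1 (0.27) were not called. The 2 lower of 6 (33.3%) are near the background of 30.9%. Of 5 olfactory neuron genes 3 had a window, and GNAL and ADCY3 were lower while CNGA2 (0.52) was not called.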

How the data were processed

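H3K9me3 and input reads were counted in promoter windows of 8 SiHa libraries. Bowtie2 2.2.9, SAMtools 1.3, FastQC 0.11.5 and the hg19 build are listed in the submitters' processing notes, with no settings. The deposited values are log2 of reads per window plus 1 constant per library, with 0.9 entered for windows without reads; this was read from the values, and 100% of them came out as whole reads within 0.01. The authors deposited 1 table per replicate set, joined here by window; 36440 of 38157 windows had enough reads (at least 10 at the median library size in 2 libraries, 15 in total). No column of per-sample values was left unused.

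Because the unit was log2, recovered reads were analysed with limma 3.58.1 (voom weights, TMM library sizes, 0.5 read added) in R 4.3.3, with terms for set, H3K9me3 against input, their interaction, fraction, and fraction by H3K9me3. Adjusted p-values cover all windows. The TMM reference was the migrated H3K9me3 library of set 1. The sets are described as paired, and deviations from group means correlated at 0.147 (H3K9me3) and 0.469 (input), so set was a block. Whether the sets came from separate cultures beyond the label of biological replicate is not stated. For H3K9me3 over input, the interaction term takes up the difference between the sets, so those p-values do not measure the spread of the ratio between sets. The error rested on 2 residual degrees of freedom per window and on 33.1 prior degrees of freedom drawn from all windows. Counting errors cover counting only.

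Members and lists were chosen with earlier results of these data known. Named receptors, among those with a mean of at least 20 reads in the inputs of set 2, are the 8 highest and 5 lowest, the extremes of each cluster, the 4 of smallest p for a change in each direction with like sign in both sets, and the small groups. Promoters came from RefSeq and were compared with BLAST 2.17.0. The method was run on simulated reads with a fixed dispersion and no difference between the sets in H3K9me3 over input, a simpler setting than these data. Alternatives were other scalings, filters, added reads, weights, windows, cluster gaps, set 2 alone and each library left out.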

Additional observations from a re-analysis of the deposited data

How the results depend on the processing

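The receptors' median stayed above the median of all windows in every setting tried, and the number of calls did not keep its size. The share of all windows called enriched moved too, from 15.8% as reported to 0.93% under the deposited scaling. It was 22.4% with no filter on low reads, 23.4% without wider windows and 24.4% with 2 reads added. Enriched receptors numbered 0 under the deposited scaling, 51 with no filter on low reads, 55 without wider windows, 58 with 2 reads added and 85 in set 2 alone, against 30 as reported, and from 9 to 66 when 1 library was left out. Lower receptors numbered 22 under the deposited scaling and 0 in set 2 alone, against 2 as reported, and from 1 to 9 when 1 library was left out. Changed receptors numbered 0 as reported and from 0 to 8 when 1 library was left out. The cause was not tested. The TMM reference was a deeper library in the fits without the filter, without wider windows and in set 2 alone. There the median of all windows was -0.04, -0.05 and 0.002, against -0.35 as reported. With 2 reads added it was -0.026, with the same reference library as in the reported fit. Contrasts of a treatment-coded fit, an alternative chosen after seeing the data, gave 21 enriched, 2 lower and 0 changed.

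With no replicate block, 30 receptors were enriched, of which 26 were called with the block, 2 were lower and 0 changed, so the pairing moved no count. OR4C13, at -0.07 as reported, was at 0.414 with no replicate block, 0.062 with total reads, 0.194 with no filter, 0.452 with 2 reads added, 0.216 without wider windows and 1.128 in set 2 alone. With 2 reads added OR10A3 was at 0.004 and OR4B1 at 0.027. In set 2 alone OR10A3 was at 0.420, OR2D2 at 0.067, OR4B1 at 0.643, OR5W2 at 0.415 and OR6M1 at 0.033. Under the deposited scaling OR10A6 was at -0.348, OR4A5 at -0.029, OR4C12 at -0.469 and the change of OR2AT4 at -0.024. When 1 library was left out, OR10A3 ranged from -1.266 to 0.454, OR2D2 from -1.615 to 0.180, OR4B1 from -1.416 to 0.672, OR4C13 from -0.633 to 0.760, OR5W2 from -1.374 to 0.418, OR6M1 from -1.457 to 0.284 and the change of OR6M1 from -3.307 to 0.008. None of these ratios and changes was called as reported. The distance between the highest and lowest cluster median, 0.64 as reported, was 0.45 in set 2 alone and from 0.66 to 1.08 when 1 library was left out.

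The 88028 (migrated) and 164766 (non-migrated) promoter reads of the H3K9me3 libraries limit the values of set 1, and 2 libraries per group limit every test.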

Other observations

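A run of 3 neighbouring receptors of cluster 3 had little input. In set 2 OR4C11, OR4P4 and OR4S2 had 9, 11 and 6 input reads in migrated cells and 5, 2 and 7 in non-migrated cells, where the medians over the receptors were 27 and 26. They lie within chr11:55371774-55418480 (hg19), and OR4C11 and OR4S2 did not pass the minimum on reads. OR4P4 gave the lowest fitted change of all receptors, -3.60 ± 1.10 (SE, unadjusted p = 0.00233 and adjusted p = 0.9995, limma), from 0 and 1 H3K9me3 reads against 4 and 11 input reads in migrated cells, and 2 and 14 against 2 and 2 in non-migrated cells. These 3 genes were picked with their values in view.

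OR51E1 and OR51E2, known for expression in the prostate, were also picked with their values in view. OR51E1 had a log2 ratio of H3K9me3 over input of 0.69 ± 0.33 (adjusted p = 0.0822, limma) and OR51E2 of -0.26 ± 0.38 (adjusted p = 0.588, limma).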
